A study of Mus musculus with 6 samples.

Results

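The nuclear lamina is the protein meshwork under the inner nuclear membrane, and the LINC complex is the bridge that couples it to the cytoskeleton. The 10 genes described here, Lmna, Lmnb1, Lmnb2, Lbr, Emd, Tmpo, Sun1, Sun2, Syne1 and Syne2, were chosen by name. Earlier results of these data were known when they were chosen. All 10 were found among the 55536 genes of the deposited count table, and all 10 were among the 18690 genes with enough counts to be tested.

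Lamins A and C, both made from Lmna, stiffen the nucleus, whereas the B-type lamins of Lmnb1 and Lmnb2 stay anchored in the membrane through a lipid tail. Lbr, Emd and the membrane forms of Tmpo bind lamins and chromatin from the inner membrane. SUN proteins span that membrane and hold the KASH tails of nesprins, which reach actin and microtubules on the outside. Lymphocytes are known for little lamin A/C and soft nuclei that squeeze through tissue, and the series title names the mechanobiology of regulatory T cells among its themes.

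The 6 libraries hold messenger RNA of thymocytes, which are T cells in development. Of these, 3 came from mice labelled Il3ra-/-, deficient in the alpha chain of the interleukin-3 receptor, and 3 came from wildtype Il3ra+/+ mice, with 1 library per mouse at steady state. No treatment, sort into thymocyte stages, strain or age is given in the labels. Il3ra itself had 481, 673 and 514 counts in the libraries labelled Il3ra-/-, against 465, 376 and 399 in wildtype, a fold of 1.14 (edgeR, Benjamini-Hochberg adjusted p = 0.585). Counts cover the whole gene and the labels do not name the deleted part, so the genotype labels are not checked by this gene and the first group is called labelled knockout throughout.

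Total counts were 59135254 to 82684219 in the labelled knockout and 55747682 to 66534218 in wildtype. All 12 thymocyte markers examined, such as Cd3e, Cd4 and Rag1, had counts in every library, and their summed level was 9413.5 to 10064 CPM in the labelled knockout and 10933 to 12374 CPM in wildtype. CPM are counts scaled to a common library size, with edgeR's TMM factors. Replicate 1 of each genotype had high Xist, the RNA of the inactive X chromosome. Xist had 128236 counts there in the labelled knockout and 88078 in wildtype, against 8 to 57 in the other libraries. The Y chromosome genes examined had 0 to 5 counts in replicate 1 of each genotype and 1724 to 11226 in the other libraries. By these genes, replicate 1 of each genotype was female and the other libraries were male. In bulk libraries, fewer cells of a type and less RNA per cell cannot be told apart.

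Thymocyte libraries held far more B-type than A-type lamin transcript. To set genes beside each other, CPM were divided by the length of all annotated exons, which understates genes with many unused isoforms. Per kb of exon, Lmnb1 stood at 117 ± 11.4 CPM in the labelled knockout and 90.5 ± 6.77 CPM in wildtype, and Lmnb2 at 16.9 ± 1.27 CPM in the labelled knockout and 13.4 ± 0.870 CPM in wildtype (SD, n = 3 each). Lmna stood at 0.669 ± 0.121 CPM per kb in the labelled knockout and 0.569 ± 0.0860 in wildtype, the lowest of the 10 genes. The full order over the 6 libraries was Lmnb1, Lbr, Sun2, Tmpo, Emd, Lmnb2, Sun1, Syne1, Syne2 and Lmna. Lbr and Sun2 overlapped in their per-kb levels over the libraries, as did Tmpo and Emd, and no other neighbours in the order did.

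**Figure D1:**
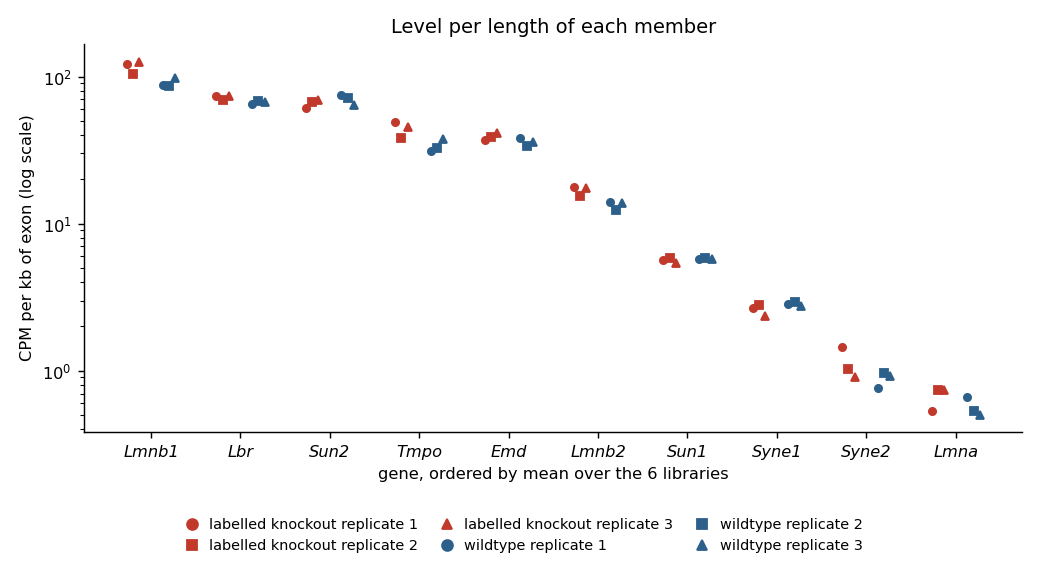
Level of each gene in CPM per kb of annotated exon on a log axis, 1 point per library, labelled knockout left of wildtype. Lmnb1 lies at the top, between 85.7 and 126 CPM per kb, and Lmna at the bottom, between 0.504 and 0.743.

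Lmnb1, lamin B1, was higher in all 3 labelled knockout libraries than in any wildtype library. Lmnb1 (ENSMUSG00000024590, GRCm38 chromosome 18, 56707813 to 56753424, plus strand) had 360, 310 and 374 CPM in labelled knockout replicates 1 to 3, against 259, 254 and 291 CPM in wildtype. The genotypes did not overlap, and replicate 3 was the highest library within each. The means were 348 ± 33.8 CPM in the labelled knockout and 268 ± 20.1 CPM in wildtype (SD, n = 3 each), a log2 fold of 0.38 ± 0.11 (SE) or 1.30-fold, with an unadjusted p of 0.00561 and a Benjamini-Hochberg adjusted p of 0.183 by edgeR's quasi-likelihood test over all genes. The gene thus did not pass by edgeR or by limma-voom (adjusted p = 0.186), whereas DESeq2 called it (adjusted p = 0.0332).

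Lmnb2, the second B-type lamin, showed the same separation at a lower level. Lmnb2 (ENSMUSG00000062075, chromosome 10, 80901203 to 80918245, minus strand) had 75.7, 66.0 and 75.0 CPM in the labelled knockout, against 60.1, 53.1 and 58.9 CPM in wildtype. Replicate 2 was the lowest library within each genotype. The fold was 1.26 (log2 fold 0.33 ± 0.10), which missed the threshold (edgeR, adjusted p = 0.184; 0.0631 by DESeq2).

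Lmna had few counts per library, and its genotypes overlapped. Lmna (ENSMUSG00000028063, chromosome 3, 88480147 to 88509956, minus strand) had 187, 360 and 302 counts in the labelled knockout, against 232, 181 and 192 in wildtype. In CPM these were 3.09, 4.29 and 4.34 in the labelled knockout, against 3.89, 3.13 and 2.94 in wildtype. Labelled knockout replicate 1 and wildtype replicates 2 and 3 were low, while labelled knockout replicates 2 and 3 and wildtype replicate 1 were high, so the split ran across the genotypes. The fold of 1.18 (log2 fold 0.24 ± 0.21) did not pass (edgeR, adjusted p = 0.645). Leaving out 1 library gave log2 folds of 0.15 to 0.38, lowest without wildtype replicate 3 and highest without labelled knockout replicate 1. Without the Xist-high library of both genotypes it was 0.51 (edgeR, adjusted p = 0.134). Counts were summed per gene, so lamin A and lamin C were not separated.

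The balance of A-type to B-type lamin did not separate the genotypes. The log2 ratio of Lmna to Lmnb1 was -6.86, -6.18 and -6.43 in the labelled knockout libraries, against -6.06, -6.34 and -6.63 in wildtype. The mean difference of -0.15 was smaller than the SD of 0.35 within the labelled knockout and 0.29 within wildtype (two-sided exact permutation test, p = 0.6, where 3 against 3 allows no p below 0.1), and without labelled knockout replicate 1 it was 0.04. For Lmna to Lmnb2 the difference was -0.10 (exact permutation p = 0.7), and 0.09 without that replicate. The B-type lamins kept nearly the same ratio to each other in both genotypes. Lmnb1 to Lmnb2 was 2.25, 2.23 and 2.32 on the log2 scale in the labelled knockout, against 2.11, 2.26 and 2.31 in wildtype (exact permutation p = 0.7). Lmna to Lbr, the other known tether of peripheral heterochromatin, differed by 0.12 on the log2 scale (exact permutation p = 0.9), with 0.016 without labelled knockout replicate 2, 0.29 without labelled knockout replicate 1 and 0.43 without the Xist-high library of both genotypes. All 8 ratios computed had a Benjamini-Hochberg adjusted exact p of 0.8 or 0.9.

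**Figure D2:**
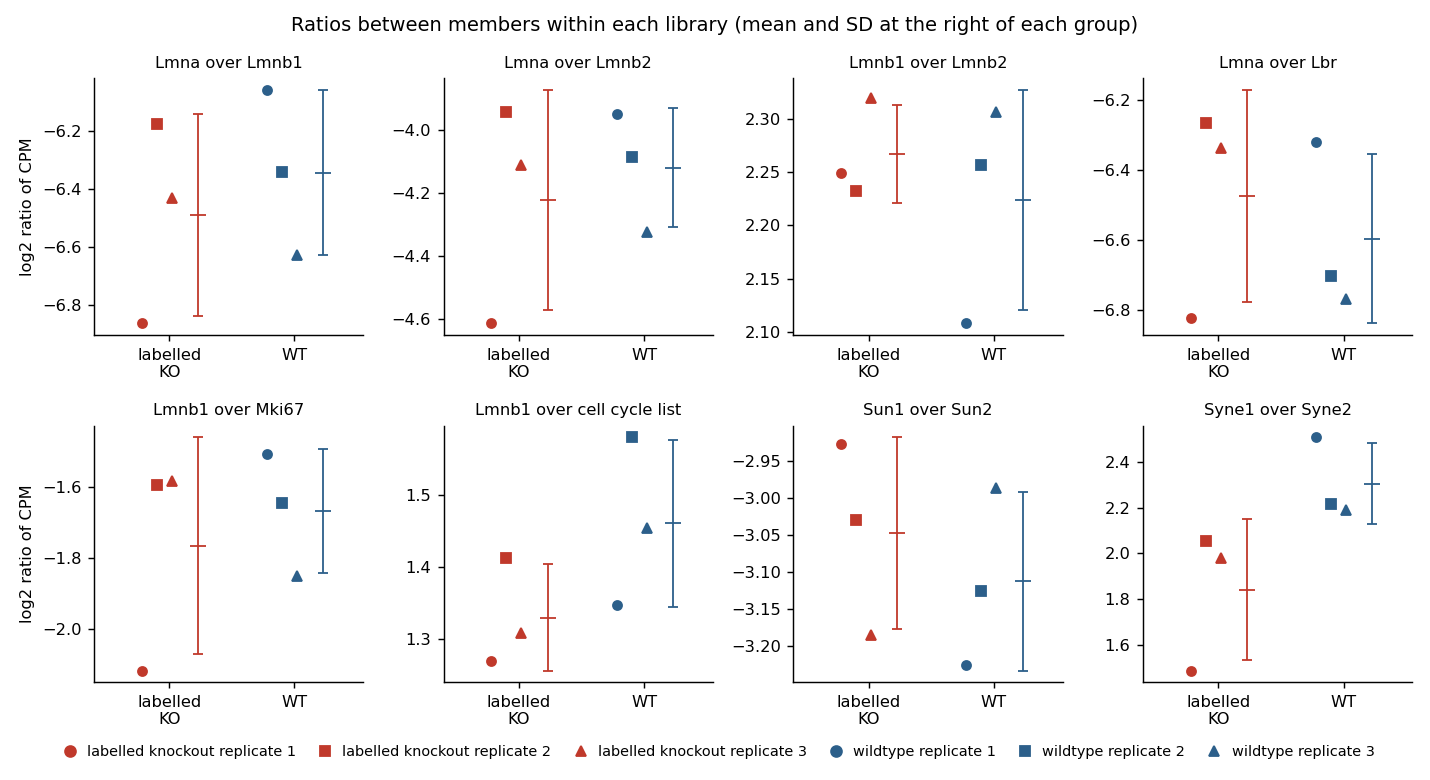
Log2 ratio of CPM between pairs of genes within each library, with the mean and SD at the right of each group. Syne1 over Syne2 is the only panel of the 8 in which the genotypes do not overlap, at 1.49 to 2.06 in the labelled knockout and 2.19 to 2.51 in wildtype.

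Among the inner membrane proteins, Tmpo had the same separation as the B-type lamins. Tmpo encodes the LAP2 proteins, which bind lamins and chromatin (ENSMUSG00000019961, chromosome 10, 91147571 to 91181315, minus strand). It had 541, 418 and 501 CPM in the labelled knockout, against 345, 362 and 413 CPM in wildtype. The groups did not overlap, but the lowest labelled knockout library, replicate 2, was only just above wildtype replicate 3. The fold was 1.30 (log2 fold 0.38 ± 0.12), with an unadjusted p of 0.00956, and missed the threshold (edgeR, adjusted p = 0.211; 0.0623 by DESeq2). The membrane-bound isoforms and the nucleoplasmic LAP2 alpha share the gene and were counted together.

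Lbr, the lamin B receptor, which also has sterol reductase activity, had higher values by a small margin. Lbr (ENSMUSG00000004880, chromosome 1, 181815335 to 181843046, minus strand) had 349, 330 and 351 CPM in the labelled knockout, against 311, 326 and 320 CPM in wildtype. The genotypes did not overlap, at a fold of 1.08 (log2 fold 0.11 ± 0.09) that did not pass (edgeR, adjusted p = 0.641). Dnah14, which overlaps Lbr on the opposite strand, had 1.14% as many counts as Lbr, the largest such share of any gene overlapping a member.

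Emd encodes emerin, a LEM-domain protein of the inner membrane, and lies on the X chromosome (ENSMUSG00000001964, 74254687 to 74261548, plus strand). It had 93.3, 97.7 and 103 CPM in the labelled knockout, against 96.2, 84.8 and 90.4 CPM in wildtype. The Xist-high library was the lowest of its group in the labelled knockout and the highest in wildtype. The groups overlapped, and the fold of 1.08 did not pass (edgeR, adjusted p = 0.585).

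The SUN proteins differed little between the genotypes. Sun1 (ENSMUSG00000036817, chromosome 5, 139200637 to 139249840, plus strand) had 43.3, 44.3 and 41.1 CPM in the labelled knockout, against 43.7, 44.2 and 43.6 CPM in wildtype, a log2 fold of -0.03 ± 0.09 (edgeR, adjusted p = 0.901). Sun2, the more abundant SUN gene in these libraries (ENSMUSG00000042524, chromosome 15, 79724070 to 79742536, minus strand), had 329, 362 and 374 CPM in the labelled knockout, against 409, 386 and 346 CPM in wildtype. The Sun2 groups overlapped, at a log2 fold of -0.10 ± 0.11 (edgeR, adjusted p = 0.706). Per kb of exon, the level of Sun1 relative to Sun2 was 0.0865 ± 0.00773 in the labelled knockout and 0.0827 ± 0.00695 in wildtype (SD, n = 3 each).

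The giant nesprins, which carry the KASH tails that SUN proteins hold, had fitted folds of opposite sign, neither of which passed. Syne1, nesprin-1 (ENSMUSG00000096054, chromosome 10, 5020917 to 5551482, minus strand), had 108, 114 and 94.9 CPM in the labelled knockout, against 115, 119 and 112 CPM in wildtype, a log2 fold of -0.13 ± 0.09 (edgeR, adjusted p = 0.558). Syne2, nesprin-2 (ENSMUSG00000063450, chromosome 12, 75818134 to 76110926, plus strand), had 38.5, 27.5 and 24.0 CPM in the labelled knockout, against 20.3, 25.7 and 24.6 CPM in wildtype. Labelled knockout replicate 1 stood above all other libraries for Syne2, and the remaining 5 lay between 20.3 and 27.5 CPM. Its log2 fold of 0.35 ± 0.17 (edgeR, adjusted p = 0.372) was 0.13 without that library and 0.03 without the Xist-high library of both genotypes. The log2 ratio of Syne1 to Syne2 was 1.49, 2.06 and 1.98 in the labelled knockout, against 2.51, 2.21 and 2.19 in wildtype. This difference of -0.46 had the smallest exact permutation p that 3 against 3 allows, 0.1 (adjusted p = 0.8 over the 8 ratios). It was -0.29 without labelled knockout replicate 1 and -0.18 without the Xist-high library of both genotypes.

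**Figure D3:**
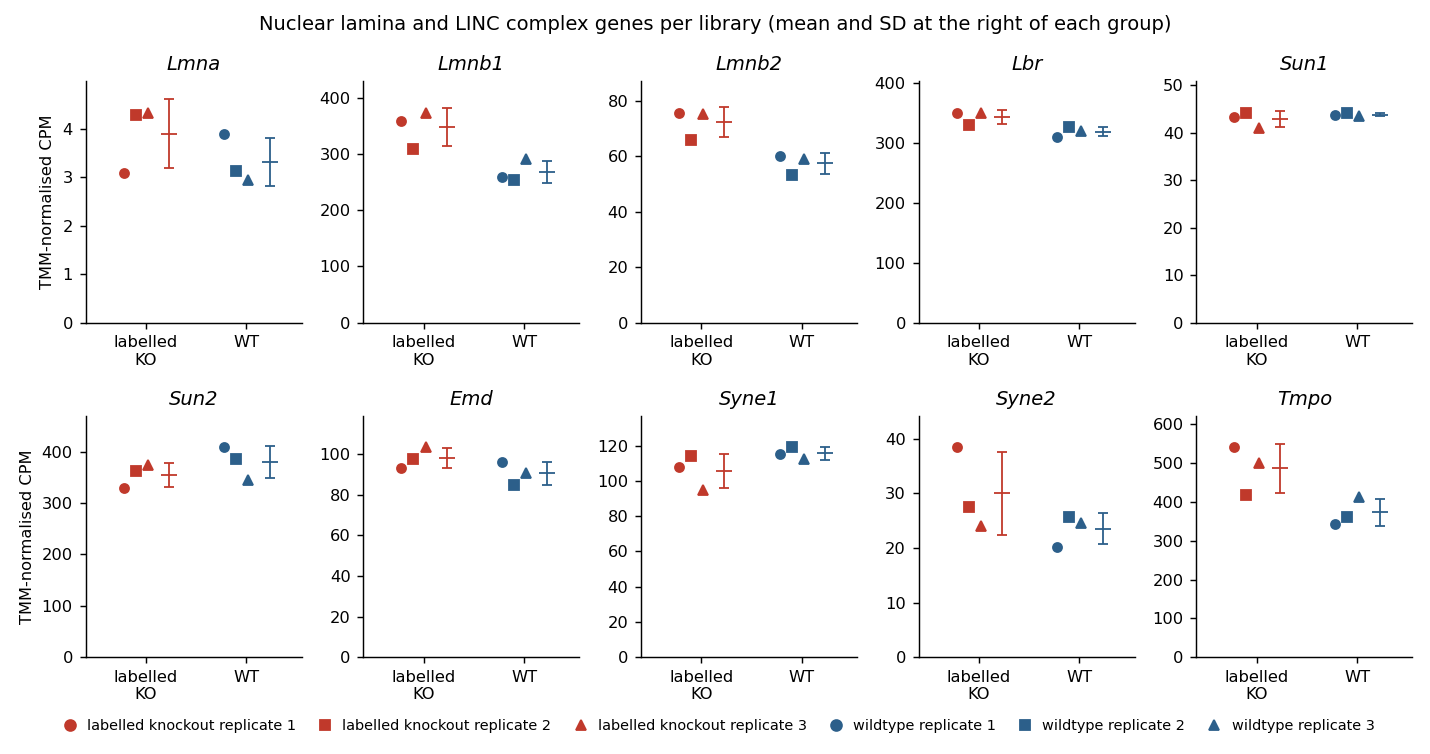
TMM-normalised CPM of each gene in every library, from 0, with the mean and SD at the right of each group. Lmnb1, Lmnb2, Lbr and Tmpo have all 3 labelled knockout libraries above all 3 wildtype libraries, and the other 6 genes overlap.

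Across the 10 genes, 0 passed edgeR's quasi-likelihood test at a Benjamini-Hochberg adjusted p under 0.05, where 0.0910% of all tested genes did, and 0.0161% did so with higher values in the labelled knockout. At an unadjusted p under 0.05 there were 3 (Lmnb1, Lmnb2 and Tmpo), all higher in the labelled knockout, against 8.01% of all genes in that direction. DESeq2 called 1 (Lmnb1), against 3.22% of all genes, and limma-voom called 0. By edgeR, 0 members also passed without the Xist-high library of both genotypes, where 3.98% of genes did, and without the filter on low counts, where 2.53% did. In 4 of the 10 genes every labelled knockout library was above every wildtype library, against 10.9% of all genes. The median log2 fold of the 10 was 0.18, beside 0.01 over all genes tested.

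Other genes of the nuclear envelope were read from the same fit. Of 20 envelope partners, which include further LEM-domain, nesprin and torsin genes, 18 were tested and 0 passed (edgeR; 3 at an unadjusted p under 0.05, where 14.6% of all genes were; 0 by DESeq2), with 7 fitted higher, 11 fitted lower and a median log2 fold of -0.03. Lemd2, a LEM-domain protein that binds lamin A, had 56.7 ± 4.74 CPM in the labelled knockout and 69.8 ± 6.91 CPM in wildtype (adjusted p = 0.244). Nrm, nurim of the inner membrane, had 31.1 ± 4.93 CPM in the labelled knockout and 22.9 ± 4.53 CPM in wildtype (adjusted p = 0.245). Nemp1 and Banf1, which encode an inner membrane protein and the link of LEM-domain proteins to DNA, had folds of 1.19 and 1.18 (adjusted p = 0.271 and 0.362). Errors are SDs over 3 libraries, and the p-values are edgeR's.

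All 5 genes for enzymes of prelamin processing were tested and 0 passed (edgeR; 0 at an unadjusted p under 0.05; 0 by DESeq2). Their folds were 0.916 to 0.992, with the carboxyl methyltransferase Icmt lowest at 62.2 ± 1.98 CPM in the labelled knockout and 67.9 ± 7.21 CPM in wildtype. Fntb, the beta subunit of the farnesyltransferase, had 27.0 ± 0.685 CPM in the labelled knockout and 29.3 ± 0.653 CPM in wildtype, with no overlap. Zmpste24, the protease that matures lamin A, had 46.1 ± 2.70 CPM in the labelled knockout and 46.8 ± 4.89 CPM in wildtype.

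Of 28 nuclear pore genes, 27 were tested and 0 passed (edgeR; 6 at an unadjusted p under 0.05, all higher, against 8.01% of all genes in that direction; 0 by DESeq2). In this list 23 were fitted higher, with a median log2 fold of 0.09. Nup205, an inner ring scaffold subunit, had 122 ± 12.2 CPM in the labelled knockout and 94.5 ± 8.25 CPM in wildtype, a fold of 1.29, and Nup93 of the same ring had a fold of 1.27 (edgeR, adjusted p = 0.176 and 0.191). Nup37 and Nup133, of the Y-shaped outer scaffold, had folds of 1.38 and 1.23 (edgeR, adjusted p = 0.242 and 0.250). In the cell cycle list, all 37 genes were fitted higher, with folds of 1.25 to 1.60 and a median of 1.43. None of them passed edgeR's adjusted threshold. By edgeR, 37 had an unadjusted p under 0.05, against 8.01% of all genes with higher values. DESeq2 called 25, against 3.22% of all genes. This list, like the others, was chosen with earlier results of these data known. Its counts beside all genes are descriptions and not an independent test.

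**Figure D4:**
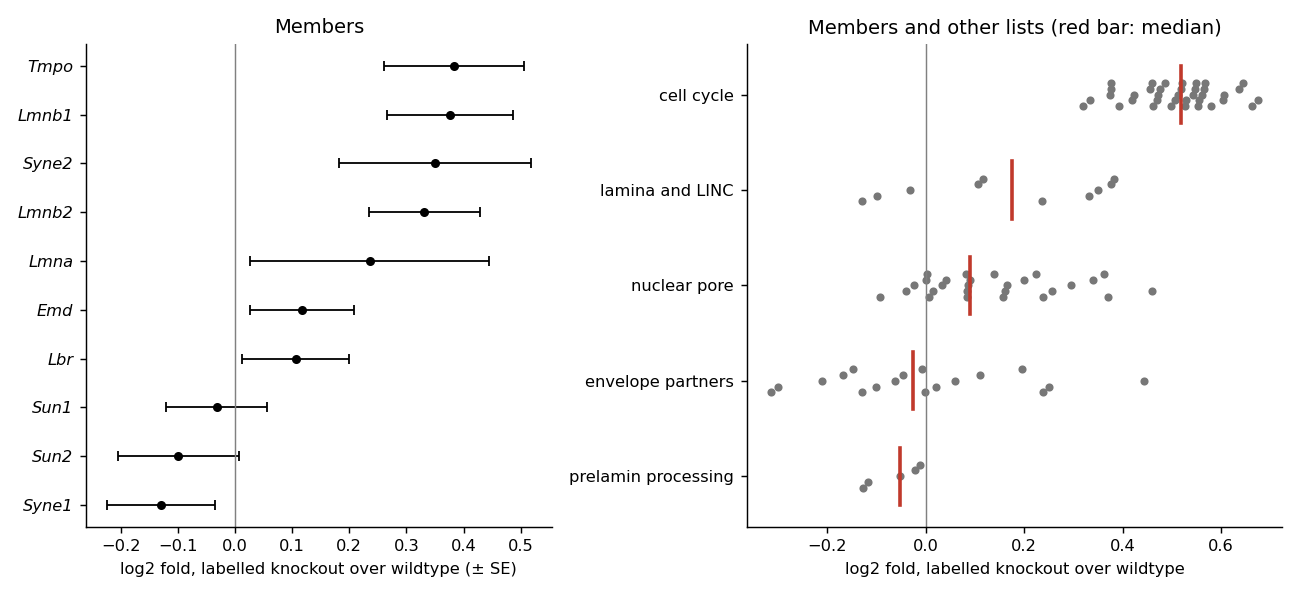
Left, log2 fold of labelled knockout over wildtype with its SE for each of the 10 genes. Right, the log2 folds of the same genes and of the other lists, 1 point per gene, with a red bar at the median, which is 0.52 for the cell cycle list and 0.18 for the lamina and LINC genes.

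Lamin B1 was next set beside genes of cell division. Mki67, a marker of dividing cells that coats mitotic chromosomes, had 1560, 937 and 1121 CPM in the labelled knockout, against 737, 794 and 1051 CPM in wildtype, a fold of 1.40 (edgeR, adjusted p = 0.287). Unlike Lmnb1, Mki67 overlapped between the genotypes, since wildtype replicate 3 was above labelled knockout replicate 2. Over the 6 libraries Lmnb1 and Mki67 had a Pearson r of 0.85 (exact permutation p = 0.0333) and a Spearman rho of 0.83 (exact p = 0.0583). Over the 6 relations computed, the adjusted exact p-values were 0.0667 and 0.117. For all 6 relations the libraries were permuted across the genotypes. A genotype difference shared by both sides of a relation therefore also lowers its p, which does not measure tracking within the genotypes. Without the 2 libraries farthest from the median of Mki67, replicate 1 of each genotype, r was 0.85, and with genotype means removed it was 0.74. Labelled knockout replicate 3 had the most Lmnb1, whereas replicate 1 had the most Mki67. Within the labelled knockout r was 0.63 and within wildtype 0.94, over 3 libraries each.

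Tmpo tracked Mki67 most closely of the members compared with it. Its r was 0.95 (exact permutation p = 0.00556, adjusted p = 0.0333; rho 0.94, exact p = 0.0167, adjusted 0.1), and it was 0.89 without the same 2 libraries and 0.95 with genotype means removed. Lmnb2 had an r of 0.78 with Mki67 (exact p = 0.0667, adjusted 0.08; rho 0.71, exact p = 0.136, adjusted 0.163), and 0.78 without these libraries and 0.56 with genotype means removed. For Lbr r was 0.80 (exact p = 0.0528, adjusted 0.0792; rho 0.77, exact p = 0.103, adjusted 0.154), but 0.51 without the 2 libraries. Lmna had no positive relation with Mki67 over the 6 libraries, at an r of -0.25 (exact p = 0.675, adjusted 0.675; rho -0.14, exact p = 0.803, adjusted 0.803). With genotype means removed its r was -0.88, and without the 2 libraries 0.36.

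The mean of the whole cell cycle list separated the genotypes, so no r was pooled over the 6 libraries for it. On the scale of log2(CPM + 0.5) the list mean was 7.23, 6.87 and 7.25 in the labelled knockout, against 6.68, 6.42 and 6.74 in wildtype, while Lmnb1 was 8.49, 8.28 and 8.55 in the labelled knockout, against 8.02, 7.99 and 8.19 in wildtype. Replicate 2 was the lowest and replicate 3 the highest within each genotype for both. With genotype means removed, the deviations of Lmnb1 from its group had an r of 0.90 with those of the list, Lmnb2 0.97, Tmpo 0.75, Lbr 0.41, Emd 0.42, Lmna -0.22, Sun1 -0.70, Sun2 -0.29, Syne1 -0.75 and Syne2 -0.0021. These are descriptions over 6 libraries, which share their depth and scaling within a library. Lmnb1 differed less between the genotypes than the list did, by 0.37 against 0.50 on that scale, a gap of -0.13 that was -0.071 without wildtype replicate 2. The log2 ratio of Lmnb1 to the list mean overlapped between the groups, at 1.27 to 1.41 in the labelled knockout and 1.35 to 1.58 in wildtype (exact permutation p = 0.2).

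The genes whose pattern over the 6 libraries was most like that of Lmnb1 were Rfwd3, a ubiquitin ligase of DNA repair, Hprt, the purine salvage enzyme, Haus2, a subunit of the augmin complex of the spindle, Ect2, which acts in cytokinesis, and Gphn, gephyrin. Their Pearson r with Lmnb1 on log2(CPM + 0.5) was 0.9945 to 0.9968, among 11200 protein-coding genes with a mean of at least 1 CPM. Rfwd3 had 110, 94.1 and 112 CPM in the labelled knockout, against 81.7, 81.5 and 91.3 CPM in wildtype. Of the 37 cell cycle genes, 35 had an r above 0.8 with Lmnb1 over the 6 libraries, beside 10.4% of the 11200 genes. Such a pooled r includes the gap between genotypes that Lmnb1 shares with the list. With genotype means removed, 18 had an r above 0.8, beside 3.94%. Both counts rest on a list chosen with earlier results of these data known, so they are descriptions only. Mki67 was not among the closest over the 6 libraries, since 7.79% of genes had an r with Lmnb1 at or above its own.

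**Figure D5:**
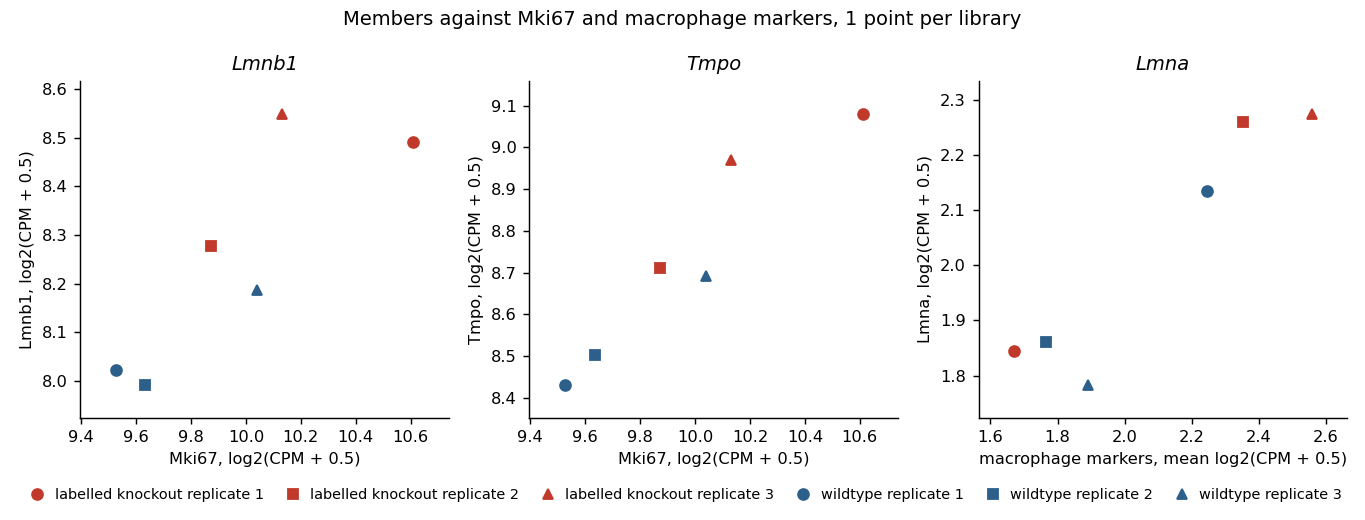
Log2(CPM + 0.5) of Lmnb1 and Tmpo against Mki67, and of Lmna against the mean of 9 macrophage markers, 1 point per library. Labelled knockout replicate 1 has the highest Mki67, at 10.61, and is the lowest of 3 low libraries on the macrophage markers, at 1.67 beside 1.77 and 1.89 in wildtype replicates 2 and 3.

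Lmna was high in the libraries with the most macrophage marker RNA. The 10 macrophage markers, among them Adgre1, Csf1r and C1qa, summed to 39.0, 67.5 and 79.3 CPM in the labelled knockout, against 68.1, 45.5 and 47.7 CPM in wildtype, and 9 of the 10 had counts in every library. The 3 libraries with the most Lmna were the 3 with the highest sums. The same 3 were also highest for the dendritic and B cell markers given below, by a small margin. Wildtype replicate 1, the lowest of the 3, had 194 CPM of dendritic and 57.9 CPM of B cell markers. Wildtype replicate 3, next in order, had 185 and 56.5 CPM. Lmna and the mean of the 9 tested markers had an r of 0.94 (exact permutation p = 0.0278, adjusted p = 0.0667; rho 0.83, exact p = 0.0583, adjusted 0.117), which was 0.946 without the 2 farthest libraries, labelled knockout replicates 1 and 3, and 0.945 with genotype means removed. This relation was chosen after the values were seen. The 5 genes most like Lmna, with an r of 0.9886 to 0.9947, among 11200 genes of which 9.04% had an r above 0.8, were Lyrm4, an iron-sulfur cluster factor, Qdpr, a pterin reductase, Axl, a receptor by which phagocytes bind dying cells, Poldip2 and Wdr74. Axl had 7.47, 16.2 and 17.0 CPM in the labelled knockout, against 12.8, 8.60 and 7.88 CPM in wildtype. With genotype means removed, the 5 genes most like Lmna were others, Samd3, Tmem222, Lrp10, Asl and Styk1, with an r of 0.9968 to 0.9995. On that measure 13.8% of the 11200 genes had an r above 0.8 with Lmna, so a high r was common. The 6 macrophage markers among these genes had a median r of 0.90 on it.

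Stromal markers, from cells in which lamin A/C is abundant, had low sums beside the thymocyte markers. Lmna itself had 2.94 to 4.34 CPM, and how much of it came from stromal cells was not tested. Fibroblast and pericyte markers summed to 8.49 to 11.3 CPM in the labelled knockout and 6.42 to 8.72 CPM in wildtype, and 6 of 9 had counts in every library. Most of this sum was Pdgfrb, at 8.72 ± 1.35 CPM in the labelled knockout and 5.71 ± 0.615 CPM in wildtype (SD, n = 3 each). Of the 4 markers tested, 2 were fitted higher and 2 lower, among the latter Dcn at a fold of 0.501. Endothelial markers without Pecam1, which thymocytes also express, summed to 2.51 to 7.52 CPM in the labelled knockout and 1.93 to 2.85 CPM in wildtype, with 4 of 7 detected in every library. Thymic epithelial markers summed to 19.8 to 22.1 CPM in the labelled knockout and 15.6 to 19.8 CPM in wildtype, with 9 of 10 so detected. Markers of B cells, with 8 of 8 so detected, summed to 36.1 to 76.4 CPM in the labelled knockout and 52.2 to 57.9 CPM in wildtype. Those of dendritic cells without Ccr9, another thymocyte gene, with 9 of 9 detected, summed to 96.1 to 259 CPM in the labelled knockout and 181 to 194 CPM in wildtype. Those of red cells, with 6 of 7 detected, summed to 3.55 to 34.3 CPM in the labelled knockout and 9.21 to 57.8 CPM in wildtype. No list had a marker at 0 in all libraries. The part of these cells in the Lmna counts, and that of the cell cycle and thymocyte markers in the Lmnb1, Lmnb2 and Tmpo values, was not tested.

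Promoter sequences are shown for Tmpo and Lmnb2, which did not overlap between the genotypes, and for Lmna, which did. RefSeq's table for GRCm38.p6 held 15 windows of 250 bases before a transcript start for 9 of the 10 genes, and Lmnb1 had no entry. Each was searched on both strands for 3 elements of cell cycle promoters, with matches in capitals below. These were the CHR, TTTGAA, the CCAAT box, CCAAT, and the E2F sites TTTGGCGC, TTTCCCGC, TTTGCCGC and TTTCGCGC. The motifs share no bases in the printed windows. Of 32851 windows of this length from all genes, 16.0% held a CHR, 33.8% a CCAAT box and 1.86% an E2F site.
Tmpo, chr10:91171620-91171869, minus strand: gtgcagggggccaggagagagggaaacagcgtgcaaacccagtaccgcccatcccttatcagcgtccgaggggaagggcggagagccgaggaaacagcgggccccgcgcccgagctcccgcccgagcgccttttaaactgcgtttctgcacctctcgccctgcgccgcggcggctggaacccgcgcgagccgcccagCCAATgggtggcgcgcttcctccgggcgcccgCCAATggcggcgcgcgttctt
Tmpo, chr10:91170551-91170800, minus strand: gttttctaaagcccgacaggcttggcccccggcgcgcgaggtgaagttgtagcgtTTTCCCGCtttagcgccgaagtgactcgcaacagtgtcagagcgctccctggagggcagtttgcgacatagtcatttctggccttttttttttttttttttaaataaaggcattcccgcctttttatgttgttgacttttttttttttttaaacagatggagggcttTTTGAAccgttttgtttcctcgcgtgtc
Lmnb2, chr10:80918246-80918495, minus strand: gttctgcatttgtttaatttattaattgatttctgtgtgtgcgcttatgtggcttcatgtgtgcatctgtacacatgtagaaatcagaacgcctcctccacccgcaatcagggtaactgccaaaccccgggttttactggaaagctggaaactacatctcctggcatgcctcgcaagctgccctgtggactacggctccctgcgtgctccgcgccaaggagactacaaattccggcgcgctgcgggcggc
Lmna, chr3:88503387-88503602, minus strand: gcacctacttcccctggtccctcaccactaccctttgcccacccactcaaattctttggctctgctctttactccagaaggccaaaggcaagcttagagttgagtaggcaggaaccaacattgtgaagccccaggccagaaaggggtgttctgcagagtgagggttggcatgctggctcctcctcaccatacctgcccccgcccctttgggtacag

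The upstream Tmpo window held 2 CCAAT boxes, and the window of the second Tmpo start held 1 E2F site and 1 CHR. Neither Lmnb2 window held any of the 3 motifs. The Lmna window shown, which leaves out annotated exon bases, held none either, whereas the window of a second Lmna start (chr3:88493313-88493562), not shown, held 1 CCAAT box. Both Lmna windows lie inside the annotated gene, which begins at 88509956 on the minus strand, and both Tmpo windows lie inside Tmpo. The bases before the outermost starts of Lmna and Tmpo were not searched. CCAAT boxes without a CHR also occurred in Sun1 and Emd, which overlapped between the genotypes. The Sun1 windows held 2 and 1, and the Emd window held 1. Among all windows, the share holding several of the motifs together was not counted. A CHR with 2 CCAAT boxes occurred in the windows of Lbr and Sun2. The stretches of 60 bases around their CHR are shown because these genes did not share a pattern, Lbr being higher in every labelled knockout library and Sun2 overlapping at a log2 fold of -0.10.
Lbr, chr1:181842402-181842461, minus strand: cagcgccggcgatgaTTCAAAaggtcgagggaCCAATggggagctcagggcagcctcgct
Sun2, chr15:79742587-79742646, minus strand: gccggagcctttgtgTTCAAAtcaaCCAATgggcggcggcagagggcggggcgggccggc

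Both stretches carry the CHR as its reverse complement, with a CCAAT box downstream of it. A match describes letters in these windows and is not a site of binding.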

How the data were processed

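Values are the authors' raw counts for each Ensembl gene as deposited, with 1 column per library, per the file headers. Reads were processed with STAR 2.5.4b and featureCounts on GRCm38, per the submitters' processing notes, from a stranded mRNA kit, per the labels' protocols. Not given in the sources used here are the annotation release, the strand setting and how reads with several alignments were counted. All 55536 identifiers matched GENCODE M21, which gave symbols, positions and exon lengths.

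Members and lists were chosen with earlier results of these data known. Columns were assigned to mice by name. Genes were filtered with edgeR's filterByExpr, which left 18690, scaled by TMM and compared by edgeR 4.0.16 (glmQLFit with robust = TRUE, glmQLFTest, R 4.3.3) with no covariate, at a Benjamini-Hochberg adjusted p under 0.05. The fit was also run on simulated counts with known folds, all larger than those of the members. That run does not measure how often folds as small as the members' would be called. Ratios and relations used exact permutation tests over libraries (scipy 1.17.1), with 0.5 CPM added before logs where stated. Named by rule were the 10 members, Mki67, Il3ra and up to 4 genes of smallest p per list. The 5 genes most like Lmnb1 and Lmna were also named by rule. Dnah14 was named after its counts were seen. Some marker genes, such as Cd3e, Csf1r and C1qa, were named outside the rule. Libraries held 55747682 to 82684219 counts, and the biological coefficient of variation was 18.7%. Alternatives were DESeq2 1.42.0, limma-voom (limma 3.58.1), other scalings and filters, a replicate block, a covariate for the Xist-high libraries and the omission of libraries.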

Additional observations from a re-analysis of the deposited data

How the results depend on the processing

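Each of the 10 members was refitted under 15 alternatives, and 148 of these fits kept direction and side of the threshold. Lmnb1 passed by DESeq2, and the log2 fold of Sun2 turned to 0.0074 without the Xist-high library of both genotypes. Adjusted p-values over the alternatives were 0.0332 to 0.663 for Lmnb1, 0.0631 to 0.690 for Lmnb2 and 0.0552 to 0.691 for Tmpo, highest without wildtype replicate 2.

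Counts of calls moved more. DESeq2 called 1 member, 25 cell cycle genes and 602 genes in all. Without the low-count filter edgeR called 0 members, 34 cell cycle genes, 1 envelope partner, 2 nuclear pore genes and 840 genes in all. Without the Xist-high libraries it called 0 members, 8 cell cycle genes, 1 nuclear pore gene and 762 genes in all. With a minimum mean of 1 CPM it called 10 genes in all, against 17 in the main comparison. Leaving out 1 library gave 0 members in each of 6 fits and 8 to 29 genes in all (8 without wildtype replicate 2, 29 without labelled knockout replicate 1). The replicate block gave 9 genes and 0 members. Deviations of same-numbered libraries from their genotype means had an r of -0.107, 0.0293 and -0.115 for numbers 1 to 3. Differently numbered libraries had an r of -0.0778 to 0.163. With 3 libraries per genotype, these values cannot show whether the mice were paired.

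With all 6 libraries the log2 ratio difference was -0.097 for Lmnb1 over Mki67 (exact permutation p = 0.7), with overlapping groups. It was 0.043 for Lmnb1 over Lmnb2 and 0.065 for Sun1 over Sun2 (exact permutation p = 0.7 each). Without the Xist-high libraries the differences turned to 0.18 for Lmna over Lmnb1 and 0.18 for Lmna over Lmnb2. They turned to -0.0058 for Lmnb1 over Lmnb2, 0.16 for Lmnb1 over Mki67 and -0.052 for Sun1 over Sun2. Leaving out 1 library gave -0.30 to 0.040 for Lmna over Lmnb1, -0.24 to 0.092 for Lmna over Lmnb2, -0.015 to 0.084 for Lmnb1 over Lmnb2, -0.19 to 0.079 for Lmnb1 over Mki67, 0.016 to 0.29 for Lmna over Lbr, -0.19 to -0.071 for Lmnb1 over the cell cycle list, 0.0047 to 0.13 for Sun1 over Sun2 and -0.57 to -0.29 for Syne1 over Syne2. The causes were not tested. Lmna had the fewest counts of the members, 181 to 360 per library.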
